A study of Homo sapiens with 2 samples.

Results

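CRTC1, CRTC2 and CRTC3 are coactivators of the cAMP response. CREB1, ATF1 and CREM are the transcription factors that CRTC proteins bind, and CREBBP and EP300 are the acetyltransferases recruited beside them. These 8 genes were chosen by name and not by a limit on any measured value, but with earlier results of these data known. Their peaks were looked for in CRTC2 RNA immunoprecipitation sequencing (RIP-seq), in which CRTC2 is pulled down and the RNA that comes with it is sequenced. A peak was counted for a gene where its exon or intron annotation named that gene, or, in the other annotation classes, where the gene was the nearest by start site. The rule gave 169 of the 175546 peaks listed, and each of the 8 genes was among the 19480 with a peak.

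The samples were 1 library of RNA that came down with CRTC2 and 1 library of input RNA from before the precipitation. Both were made from HCCLM3, an established line of human liver cancer cells labelled as wild type. No treatment is named for either library. There was no replicate, and a precipitation with a control antibody was not analysed here. Every value below therefore compares those libraries and has no replicate check and no test.

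In the fasting liver, glucagon raises cAMP, and protein kinase A phosphorylates CREB1 on gene promoters that hold a cAMP response element (CRE). CRTC proteins are held in the cytoplasm by phosphorylation through salt-inducible kinases, and enter the nucleus once calcineurin removes the phosphate. On DNA, CRTC proteins contact the leucine zipper of CREB factors, while CREBBP and EP300 contact the phosphorylated activation domain and acetylate histones. The measurements here are of another kind, namely which transcripts of these same genes were recovered with CRTC2.

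The fold of a peak is the authors' deposited ratio of the RIP signal to its control at the highest point of the peak (the summit), with 1 added to each side. The control is taken here to be the input library, and the p and q values of each peak are the authors' too. RIP fragments and the input level at each summit were recovered from the fold and the p. A bracketed range after a fold is the exact Poisson 95% interval of the RIP fragments at a fixed input level, and it covers counting error only. A peak on 1 fragment cannot have an interval above 1, since its lower bound is 0.996 even at the lowest input level. The list reached down to a −log10 p of 1.3, and 88.8% of its peaks had a −log10 q of 0. Its lowest fold was 1.33, so every peak had been selected as higher in the RIP library. The intervals use the same fragments as that selection. An interval above 1 is therefore a description and not separate support for enrichment. The depth was shallow, with a median of 2 RIP fragments at a summit and 46.2% of peaks on a single fragment. Of the hepatocyte and liver cancer markers, 12 of 13 had a peak, 7 of them in an exon, against 4 of 8 blood markers with a peak and none in an exon. Stellate, fibroblast and endothelial markers had a peak in 3 of 8 cases, 2 of them in an exon. Neuronal markers had one in 5 of 5, 3 of them in an exon, so exon peaks did not set liver markers apart from neuronal ones. An exon peak was held by 9731 of the 19480 genes with a peak, so the liver count of 7 was also near the background. A peak is enrichment over input, not a level of RNA, so a marker without one (SERPINA1, PTPRC and others) may still be expressed.

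The 8 genes differed widely in how many peaks they held and in where those peaks lay. CREBBP had 48 peaks and EP300 34, most of them in exons. CRTC3 held 21, ATF1 19, CRTC1 16, CREB1 12, CREM 10 and CRTC2 9. One peak stood out by its q value, in exon 12 of CRTC3, with a fold of 6.05. Among all peaks, 1.63% were at a q of at most 0.05, and the 8 genes had 1 of 169 (0.592%, exact Clopper-Pearson 95% interval 0.0150 to 3.25). The same peak was the only member peak with a fold of at least 4, a size that 1.63% of all peaks reached. By gene, 1 of the 8 (12.5%) had a peak at that q, against 11.3% of all genes with a peak. The 8 genes had more chances to hold one, with a median of 17.5 peaks per gene against 5 for all genes with a peak. The shares by peak and by gene lie near the background, so the group as a whole did not stand apart by strongly enriched peaks. The plot of every fold by gene shows how far the CRTC3 peak lies from the rest.

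**Figure D1:**
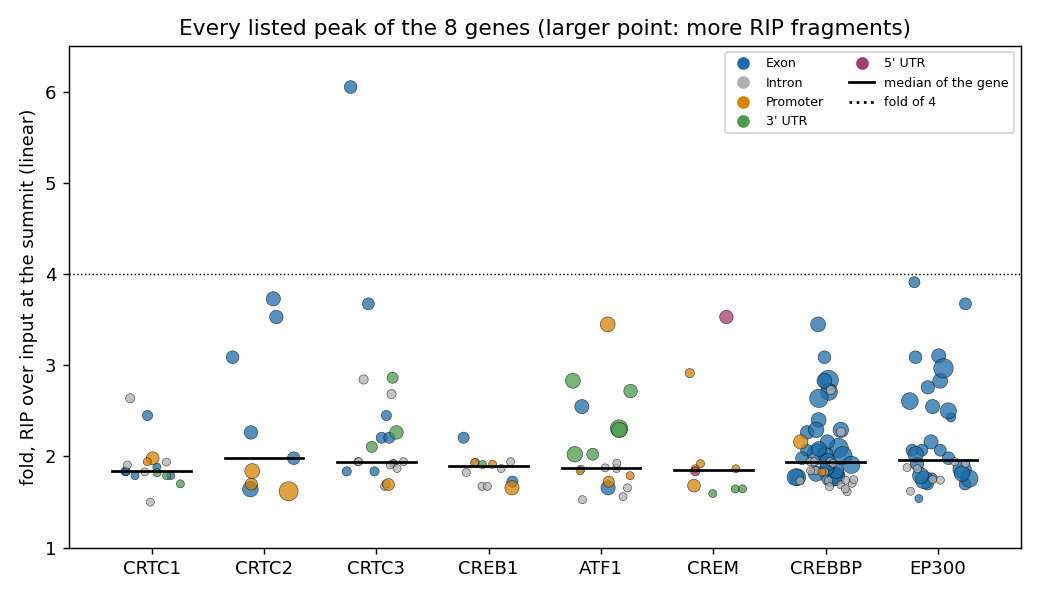
Fold of RIP over input at the summit (vertical axis, linear scale) for each of the 169 peaks, by gene and coloured by annotation class, with larger points for more RIP fragments, a bar at the median of each gene and a dotted line at a fold of 4. The CRTC3 exon 12 peak at 6.05 is the only one above a fold of 4, and the medians of the 8 genes lie between 1.84 and 1.98.

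CRTC2 encodes the protein that was precipitated, the main CRTC form in liver. Its gene is short (chromosome 1, 153947675 to 153958612, 10.9 kb), and its 9 peaks gave a density of 8.23 peaks per 10 kb, above the other 7 genes, which ran from 1.16 to 3.89. These densities count every listed peak, also 2 of CRTC2 and 7 of ATF1 that lay outside the gene span. Of the 9 CRTC2 peaks, 6 lay in exons, 3 were promoter class and none was intronic. All 9 rested on at least 5 RIP fragments, which held for no other member.

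The CRTC2 peak with the highest fold lay in exon 9 of 14 (chromosome 1, 153952008 to 153952414), where the RIP library had 8 fragments against an input level of 1.41, a fold of 3.73 (1.84 to 6.94). In exon 7 the RIP library had 7 fragments against 1.27, a fold of 3.53 (1.68 to 6.80). In exon 5 it had 6 fragments against 1.27, a fold of 3.09 (1.41 to 6.20). These intervals lie above 1 but overlap each other widely, so the 3 exons cannot be put in order. Exon 6 had a lower fold of 2.26 (1.08 to 4.36). In exons 2 and 11 the folds were 1.98 (0.906 to 3.98) and 1.64 (0.865 to 2.89), and these intervals reach below 1. The list thus held an exon-class peak at 6 of the 14 exons, as it does only where the RIP library exceeded its control. The lowest q of any CRTC2 peak was 0.187, and the transcript of the precipitated protein did not reach a q of 0.05.

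The promoter-class peaks of CRTC2 were weaker, with folds of 1.62 to 1.84. Those with folds of 1.84, on 9 fragments, and 1.62, on 16 fragments, lay upstream of the RefSeq gene and inside the span of the neighbouring SLC39A1, a zinc transporter gene. The third lay 120 bp from the start site and had a fold of 1.70.

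CRTC3 is the CRTC family member with the strongest peak. The gene spans 115 kb of chromosome 15 (90529923 to 90645345) and had 21 peaks, of which 8 were in exons, 9 in introns, 3 in the 3′ UTR class and 1 in the promoter class. In exon 12 of 15 (chromosome 15, 90638483 to 90638543, 61 bp) the RIP library had 6 fragments where the input level was 0.157, a fold of 6.05 (2.77 to 12.2). The −log10 q was 3.84, a q of 0.000143. That q depends on the low input level, which the interval holds fixed. The highest peaks of SIK3 and PRKAA1, described below, had the same 6 fragments against 0.634. Their fold was 4.28, and neither gene had a peak at a q of at most 0.05. Of all genes with a peak, 98.9% had a lower highest fold than CRTC3, which ranked 197 of 19480. That rank rests on the highest of 21 peaks, and 89.3% of the genes had fewer peaks. The next lowest q among the 169 peaks was 0.128, which 3 peaks shared, in CREM, CREBBP and EP300.

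The neighbouring exon 11 of CRTC3 had 5 RIP fragments against 0.634, a fold of 3.67 (1.61 to 7.75). Exon 15 had a fold of 2.45 on 3 fragments, and exons 3 and 10 had 2.21 on 4 fragments each. The lower bounds of these last 3 intervals were below 1. A wide peak annotated to exon 6 covered 9064 bp with 1 fragment at its summit, and another at exon 9 covered 6031 bp with 2 fragments, so the named exon is only a small stretch of each. The highest intronic fold was 2.84, in intron 3, on 2 fragments. CRTC3 exon 12 also lies in the last 25.3 kb of the gene, which CRTC3-AS1, an antisense RNA, overlaps. The list gives no strand, so the transcripts cannot be told apart there. In the 71.8 kb that belong to CRTC3-AS1 alone the list held 1 peak, promoter class, with a fold of 1.94.

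The nearest-start column of the list named another gene for this CRTC3 peak. Taken by that column alone, the highest fold given to CRTC3 was 2.86, more than 1.5 times lower, at a peak that lies in the neighbouring gene IQGAP1. No peak given to CRTC3 was then at a q of at most 0.05.

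CRTC1, the family member best known from neurons, had 16 peaks over 98.7 kb of chromosome 19 (18683680 to 18782333). Most rested on almost nothing: 12 of the 16 had 1 fragment, and all 16 summits together held 25 fragments, against 74 for the 9 peaks of CRTC2. Without the peaks that lie outside each gene's span, the sums were 22 for CRTC1 and 49 for CRTC2. Its exon peaks were in exons 4, 9, 10, 12, 13 and 14 of 15, with folds of 1.79 to 2.45 and at most 3 fragments. The highest fold, 2.64 (1.09 to 7.23), was in intron 4, on 2 fragments against an input level of 0.137. The 136 bp promoter-class peak that begins 19 bp after the start site had 6 fragments and a fold of 1.98 (0.906 to 3.98). A second promoter-class peak ran over 57273 bp of the gene on 1 fragment.

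An interval above 1 was found for 4 of the 9 CRTC2 peaks, all in exons, and for 1 of the 16 CRTC1 peaks, an intronic one. Of the 21 CRTC3 peaks 6 had one, but 2 of these lay outside the gene, in IQGAP1, and 2 were intronic on 2 fragments each, which leaves exons 11 and 12. Over all peaks in the list, 26.3% had an interval above 1. These counts depend on fragment number, as peaks on 1 fragment cannot have one. Such peaks were 12 of 16 in CRTC1, 8 of 21 in CRTC3 and 0 of 9 in CRTC2. The differences between these genes are differences between peaks of the same libraries and were not tested.

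**Figure D2:**
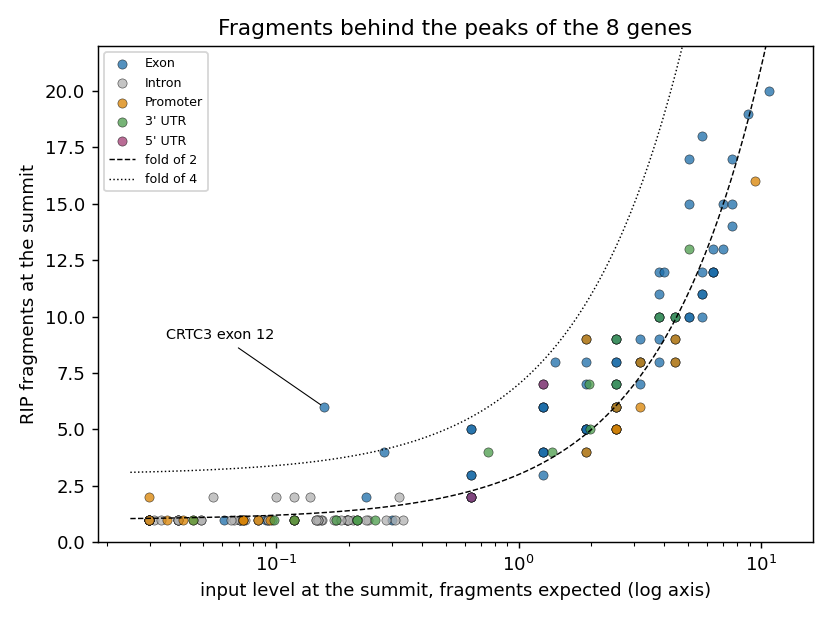
RIP fragments recovered at each summit (vertical axis, linear) against the input level there in fragments expected (horizontal axis, log scale) for the 169 peaks, coloured by annotation class, with curves at folds of 2 and 4. The 9 peaks on 15 to 20 fragments, 8 of them in exons, have folds of 1.62 to 2.97 and lie near the curve for a fold of 2, while the CRTC3 exon 12 peak combines 6 fragments with an input level of 0.157.

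CREB1 is the founding CRE-binding factor of the family. Its highest fold was 2.21 (0.922 to 4.96), in exon 6 of 7, from 4 RIP fragments against an input level of 1.27. This was the lowest of the 8 genes as the list assigns peaks, but not by RefSeq span, where CREB1 had 2.83 and CRTC1 2.64. Of all genes with a peak, 29.5% had a lower highest fold than the 2.21. The other exon peak, in exon 5, had 4 fragments and a fold of 1.72. Of the 12 peaks listed for CREB1, 9 rested on 1 fragment, which cannot give an interval above 1, and none of the 12 had one. At the first start site of the gene (chromosome 2, 207529962 to 207605988, 76.0 kb) a promoter-class peak had 8 fragments against 4.44, a fold of 1.66 (0.819 to 3.08).

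The 3′ end of CREB1 gave a different count. A further 15 peaks in the 3′ UTR class lay within the CREB1 span but were listed for METTL21A, a protein methyltransferase gene on the other strand that overlaps the last 25.4 kb of CREB1. Their folds ran from 1.59 to 2.83 with a median of 2.22, on 1 to 5 fragments, and 3 of the 15 had an interval above 1. With peaks assigned by the span that holds the summit, CREB1 had 27 peaks instead of 12. The 20.1 kb of METTL21A outside CREB1 held 8 peaks, none in an exon and 2 of them 3′ UTR class. Without strand, these CREB1 and METTL21A signals cannot be told apart.

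ATF1, the closest relative of CREB1, had 19 peaks, but 7 of them lay outside its RefSeq span on chromosome 12 (50763459 to 50821162, 57.7 kb). Its 6 peaks of the 3′ UTR class all lay in DIP2B, the gene upstream, with folds of 2.02 to 2.83 on 5 to 13 fragments. The peaks inside ATF1 included exon 5 of 7, with 8 RIP fragments against 2.53 and a fold of 2.55 (1.26 to 4.74), and exon 4, with 8 fragments against 4.44 and a fold of 1.66 (0.819 to 3.08). All 7 intronic peaks had 1 fragment each.

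The highest ATF1 fold, 3.45 (1.76 to 6.23), came from 9 RIP fragments against an input level of 1.90 in a 34 bp promoter-class peak. Its sequence is shown because it is the base under the strongest ATF1 signal, read from the RefSeq promoter windows (GRCh38.p14, plus strand). The capitals mark GTAAGT, letters that often stand at the start of an intron, which were looked for after the sequence was seen. They stood on either strand in 6.33% of the 35116 windows of 300 bases, which are longer than this 34 bp peak. No share was taken for plus-strand stretches of 34 bp, so the match is a description only.
ATF1 promoter-class peak, chr12:50764299-50764332: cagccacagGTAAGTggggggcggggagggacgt

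CREM encodes activators and, from an internal promoter that cAMP itself induces, the short repressor ICER. It had 10 peaks over 86.1 kb of chromosome 10 (35126846 to 35212958) and none in the exon or intron class: 5 were promoter class, 3 were 3′ UTR and 2 were 5′ UTR. The highest fold, 3.53 (1.68 to 6.80), lay in a 34 bp peak of the 5′ UTR class (chromosome 10, 35178914 to 35178947), from 7 RIP fragments against 1.27. The next, 2.91 (1.21 to 7.99), belonged to a peak of 29485 bp with 2 fragments at its summit and an input level at the floor of the list, 0.0298. The other CREM peaks had folds of 1.59 to 1.92. All 10 CREM summits held 23 fragments together.

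The CRE itself could be looked for in the RefSeq windows of 250 bases before to 50 after each start site, which covered 7 of the 8 genes in 16 windows (none for CRTC2). The full CRE, TGACGTCA, reads the same on both strands and was present in 1.85% of all 35116 windows. Among the 16 windows it was found in 2, which overlap at the internal start sites of CREM and share the same letters. The short CRE, TGACG, searched on both strands and contained in the full CRE, was in 24.6% of all windows and in 5 of the 16, from CREM, CRTC3 and CREBBP. The stretch with the full CRE and the short CRE that lies under a CREM peak are printed (plus strand, motif in capitals).
CREM internal start site, full CRE, chr10:35195841-35195870: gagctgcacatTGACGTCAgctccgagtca
CREM first promoter, short CRE, chr10:35127038-35127064: cgcatcacagcTGACGtgaggactacg

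The full CRE lies 2 bp after the start site at 35195850 and within a CREM peak of 30985 bp. That peak had 1 RIP fragment, and its summit lay at −15469 bp from the start site, so the peak covers the CRE but the fragment number is known only at that summit. The signal at the CRE itself was not analysed here. The printed short CRE lies under a 134 bp peak with 6 fragments against 3.17, a fold of 1.68 (0.768 to 3.37). RIP-seq measures RNA, and neither match is evidence of binding to DNA.

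CREBBP and EP300 are paralogous acetyltransferases with long coding sequences split over many exons, and their peaks followed the exons. CREBBP (chromosome 16, 3725054 to 3880713, 156 kb) had 28 exon, 18 intron and 2 promoter-class peaks. Its exon summits held 5 to 20 RIP fragments with a median of 10, while 16 of its 18 intron peaks had 1 fragment. EP300 (chromosome 22, 41092592 to 41180077, 87.5 kb) had 27 exon and 7 intron peaks. Its exon summits held 1 to 17 fragments with a median of 7, and all 7 intron peaks had 1. In the numbering of the transcripts with 31 exons, 27 CREBBP exons and 25 EP300 exons had a peak of the exon class. The CREBBP exons without a peak of that class were 1, 11, 20 and 22, and those of EP300 were 1, 8, 16, 18, 21 and 24. Exon 1 is not shown to lack signal, because peaks at a start site fall in the promoter class. A promoter-class peak ran to 460 bp past the EP300 start site, and one of CREBBP began 22 bp after a start site. CREBBP had more peaks than 98.5% of all genes with a peak, and EP300 more than 96.3%.

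**Figure D3:**
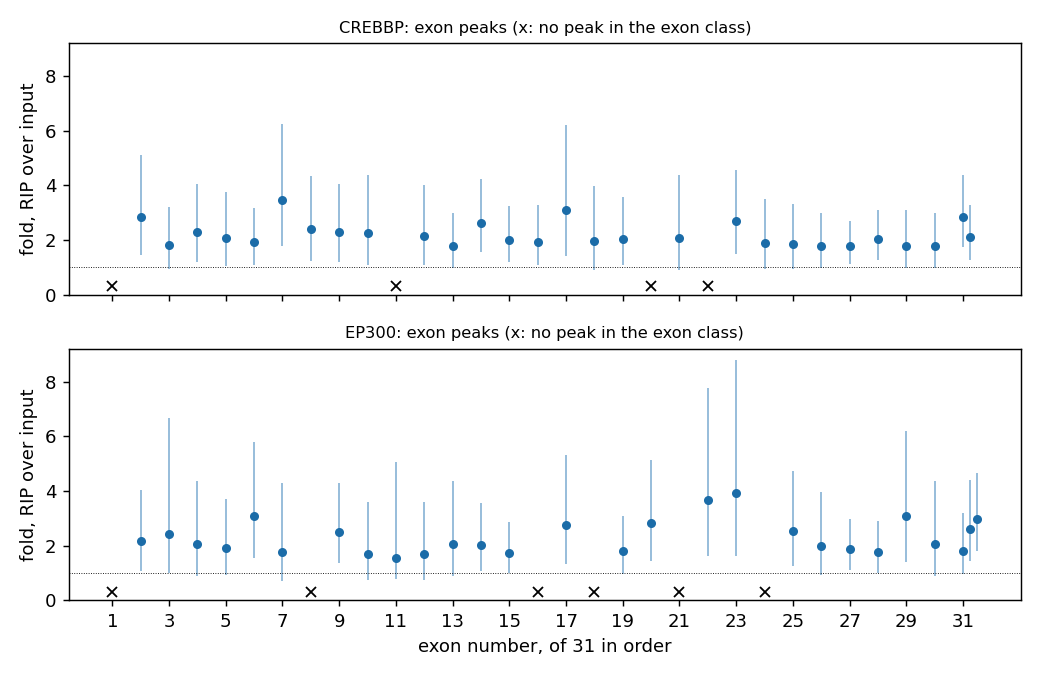
Fold at the exon peaks of CREBBP and EP300 by exon number in the transcripts with 31 exons, with exact Poisson 95% intervals of the RIP fragments as bars, a dotted line at a fold of 1 and a cross where an exon had no peak of the exon class. The highest points are EP300 at 3.91 (exon 23 here, 22 in the transcript with 30 exons) and CREBBP at 3.45 (exon 7 here, 6 in the transcript with 30 exons).

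Many CREBBP and EP300 exons were covered, but the enrichment at each was modest. Exon numbers in the values that follow are those of the transcripts with 30 exons, unlike the numbers of exons without an exon-class peak above. The highest CREBBP fold was 3.45 (1.76 to 6.23), in exon 6 of 30 (chromosome 16, 3781227 to 3781297), from 9 RIP fragments against an input level of 1.90. Exon 16 had 6 fragments against 1.27, a fold of 3.09 (1.41 to 6.20). The last exon, which also holds the 3′ UTR, had 18 fragments against 5.70, a fold of 2.83 (1.74 to 4.39), and its q of 0.128 was the lowest of the gene. Exon 26 carried the most fragments of any of the 169 peaks, 20, against an input level of 10.8, and its fold was 1.78 (1.12 to 2.71). A large fragment number in CREBBP thus went with a high input level.

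The highest EP300 fold was 3.91 (1.63 to 8.79), in exon 22 of 30 (chromosome 22, 41166643 to 41166694), from 4 RIP fragments against an input level of 0.279. Exon 21 of 30 (22 of 31) had 5 fragments against 0.634, a fold of 3.67 (1.61 to 7.75). Exons 6 and 28 of 30 followed with 3.10 and 3.09. The last exon of EP300 held 3 peaks, and the one nearest the 3′ end had 17 fragments against 5.07, a fold of 2.97 (1.80 to 4.65) with a q of 0.128. Both acetyltransferase transcripts therefore had a last-exon peak on many fragments, with folds of 2.83 in CREBBP and 2.97 in EP300. Their shared q is a tied value that a CREM peak on 2 fragments also had, so it shows no likeness. The other last-exon peaks had lower folds, 2.09 in CREBBP and 1.81 and 2.61 in EP300. In all, 21 of 48 CREBBP peaks (43.8%) and 15 of 34 EP300 peaks (44.1%) had an interval above 1, against 26.3% of all peaks. This share depends on fragment number: 30.5% of the peaks of these 2 genes rested on 1 fragment, against 46.2% of all peaks. No background matched on fragments or class was made.

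EP300 had no promoter-class peak of its own in the list, but 1 lay across its start site. The peak (chromosome 22, 41092211 to 41093052, 842 bp) was listed for MIR1281, a microRNA gene just upstream, with 7 RIP fragments against 1.27 and a fold of 3.53 (1.68 to 6.80). Its summit lay 250 bp before the EP300 start site. The 250 bases before that start site (RefSeq, GRCh38.p14, plus strand) are printed to show how close the genes stand, with the microRNA hairpin in capitals. Whether the fragments came from EP300, from the hairpin or from other RNA of this stretch was not tested.
EP300 upstream region, chr22:41092342-41092591: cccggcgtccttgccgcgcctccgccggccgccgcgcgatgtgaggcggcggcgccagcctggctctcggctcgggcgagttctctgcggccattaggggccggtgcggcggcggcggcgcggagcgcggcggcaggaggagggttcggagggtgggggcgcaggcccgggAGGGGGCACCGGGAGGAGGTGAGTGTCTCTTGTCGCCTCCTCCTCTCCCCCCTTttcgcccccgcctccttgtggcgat

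By annotation class, the 8 genes together had more exon peaks than the list as a whole: 79 of 169 (46.7%, 39.0 to 54.6) against 30.4% of all peaks. Introns held 52 (30.8%) against 26.6%, and promoters 20 (11.8%, 7.38 to 17.7) against 20.9%. The 3′ UTR class held 16 (9.47%) against 13.8%, and the 5′ UTR class 2 (1.18%) against 2.08%. No member peak was intergenic, a class that held 6.09% of all peaks. The exon share was highest in the acetyltransferases, with 55 of 82 (67.1%, 55.8 to 77.1). The CRTC genes had 20 of 46 (43.5%, 28.9 to 58.9) and the CREB factors 4 of 41 (9.76%, 2.72 to 23.1). Peaks of a gene share its transcript and are not independent, so these intervals describe counting error and no more.

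The folds of the 169 peaks were those of the list, with a median of 1.92 (quartiles 1.78 and 2.26) against 1.89 (1.76 and 2.35). At exons the medians were 2.07 and 1.94. Exon peaks of the 8 genes had a median of 8 RIP fragments against 4 for all exon peaks, and 61 of 79 (77.2%) had at least 5, against 42.6%. CREBBP and EP300 carried this difference, with 51 of 55 exon peaks (92.7%) on at least 5 fragments and a median of 9. The CRTC genes had 8 of 20 (40%) and a median of 3.5, and the CREB factors had 2 of 4. Among exon peaks, 1 of 79 (1.27%) had a q of at most 0.05, against 2.98% of all exon peaks. Intron peaks were thin in both sets, with 90.4% on 1 fragment in the 8 genes and 85.8% in the list. Peaks wider than 1 kb numbered 23 and covered 289 of the 309 kb under all 169 peaks, yet 20 of these 23 had 1 fragment.

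**Figure D4:**
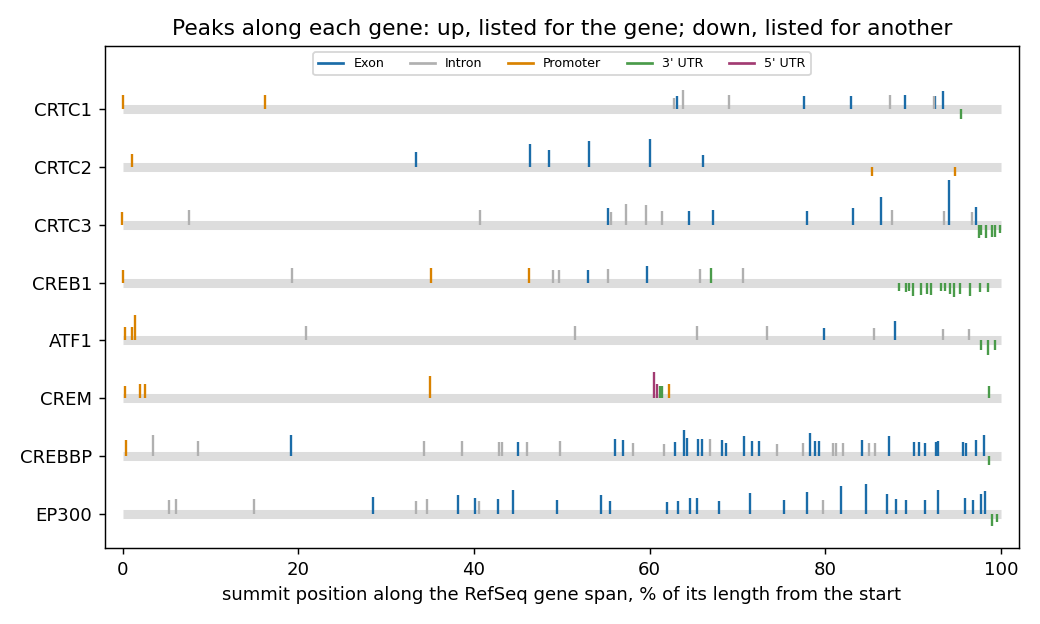
Position of each peak summit along the 8 genes from start site to end (horizontal axis, percent of gene length), with upward ticks for peaks listed for the gene, downward ticks for peaks in its span listed for another gene, tick height for the fold and colour for the annotation class. CREB1 has a run of 15 downward ticks near its 3′ end, and the exon ticks of CREBBP and EP300 stand closest together in the 3′ part of each gene.

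The gene named for a peak mattered most at the 3′ ends. Of the 169 peaks, 153 overlapped the RefSeq span of their gene and 16 did not, including 12 of the 16 peaks of the 3′ UTR class. Those of CRTC1 lay in KLHL26 (3 peaks, folds of 1.70 to 1.82) and those of CRTC3 in IQGAP1 (3 peaks, folds of 2.11 to 2.86). In the other direction, 32 peaks that overlapped a member's span were listed for other genes, 28 of them in the 3′ UTR class. These were 15 in CREB1, 6 in CRTC3, 3 in ATF1, 2 in EP300 and 1 each in CREBBP and CRTC1. The other 4 were the peak at the EP300 start site, 2 promoter-class peaks in CRTC2 listed for DENND4B with folds of 1.70 and 1.66, and a peak at CREM that was listed for CCNY and had its summit outside CREM. A 3′ UTR count for these genes taken from the list therefore mostly describes their neighbours. Counted by summit within the span, the 8 genes had 182 peaks, of which 79 were in exons and 32 in the 3′ UTR class, and the median fold was again 1.92.

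**Figure D5:**
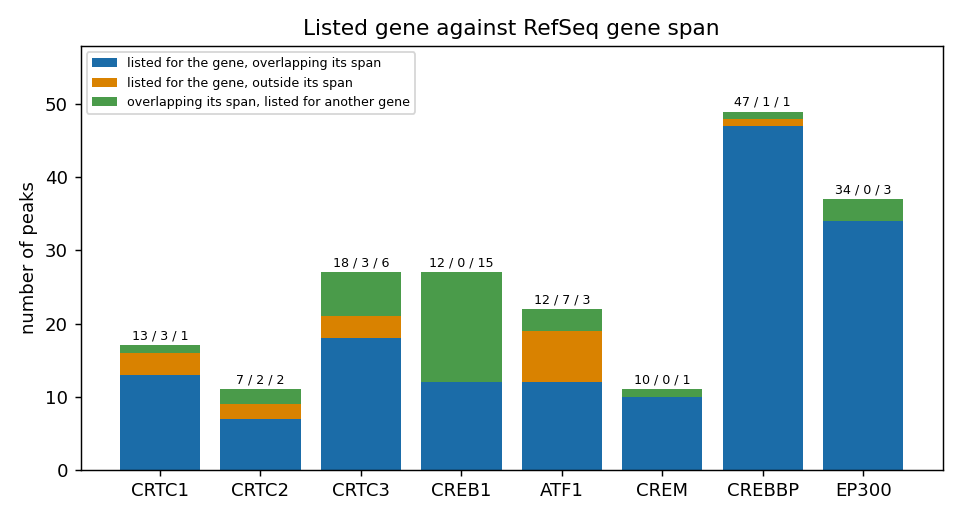
Number of peaks of each gene (vertical axis), stacked as peaks listed for the gene that overlap its RefSeq span, peaks listed for it outside that span and peaks in its span listed for another gene, with the 3 counts above each bar. CREB1 has 12, 0 and 15, ATF1 has 12, 7 and 3, and CREBBP has 47, 1 and 1.

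Other genes of the CRTC and CREB pathway were looked at through a list of 57. Of these, 53 had a peak and 43 had one in an exon, while 9731 of all 19480 genes with a peak had an exon peak. A peak at a q of at most 0.05 was held by 11 of the 57 (19.3%), against 11.3% of all genes with a peak. Genes with more peaks have more chances to hold one, and the list had a median of 15 peaks per gene, against 5 for all genes with a peak. The median of the highest folds was 3.35 in the list, 3.49 in the 8 genes and 2.83 over all genes with a peak.

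Among the kinases and phosphatase subunits that act on CRTC proteins, all 16 had a peak and 2 reached that q. PRKAG1, a subunit of the energy sensor AMPK, was given a promoter-class peak with a fold of 4.90 on 7 fragments. Peaks of that class go to the gene with the nearest start and can lie outside it, as also for CREB3L3 below. Counted by RefSeq span, 10 pathway genes reached that q instead of 11. PPP3R1, the regulatory subunit of calcineurin, had an exon peak with a fold of 3.30 on 19 fragments. SIK3 and PRKAA1, kinases of CRTC proteins, each had a highest fold of 4.28 on 6 fragments. Of the protein kinase A and cAMP genes, 12 of 14 had a peak and 4 reached that q: ADCY9, an adenylyl cyclase, with 4.86, the phosphodiesterases PDE4D with 4.72 and PDE4A with 4.64, and PRKAR1A, a regulatory subunit of protein kinase A, with 3.28. PRKAR1A also had a 3′ UTR peak with a higher fold of 3.84 that did not reach that q. The first 3 of these genes rested on 4 fragments each. The ADCY9 peak covered 3508 bp with an input level at the floor of the list, 0.0298. Of the further bZIP factors, 14 of 16 had a peak and 2 reached that q, CREB3L3, a liver factor anchored in the endoplasmic reticulum, with 3.78 and ATF6, a stress factor of the same membrane, with 3.88, both on 3 fragments. That ATF6 peak was intronic, covered 44969 bp and had an input level at the same floor. ATF2 had the highest fold of these factors, 4.28 on 6 fragments. Of the further coactivators and partners, all 11 had a peak and 3 reached that q. TAF4, a TFIID subunit, had 6.12 on 9 fragments, and the nuclear receptor coactivators NCOA1 and NCOA2 had 5.67 on 5 and 5.51 on 8. These 3 folds are of the size of the CRTC3 exon 12 peak, which therefore was not the only strong peak among coactivator genes.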

How the data were processed

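Per the labels' protocols, RNA of both libraries was extracted with a Magna RIP kit and prepared with a stranded low-input total RNA kit. The submitters' processing notes name HISAT2, MACS2 and hg38. Tool versions were not given in the sources used here, and neither were settings. The authors deposited 1 annotated peak list. Its fold is a linear ratio, per the file headers. The −log10 p and −log10 q stand in columns whose deposited headers were spoiled and were identified by place and values. The deposited score equals 10 times the −log10 p rounded down (100% of peaks) and was not used further. Widths, summits and distances are the authors'.

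RIP fragments and input levels were solved from fold and p, with a pseudocount of 1 and a Poisson tail, within 0.001. This gave a value for 100% of peaks, 1 solution for 97.5%, and a value for 3.89% after the p-values were shuffled. Of the 169 member peaks, 165 had 1 solution. The calculation was tested on simulated data. No statistical test between conditions was possible. Gene spans, promoters and microRNAs came from RefSeq (GRCh38.p14). All 8 genes were described with their highest-fold peaks, as was each pathway gene with a peak at a q of at most 0.05 or among the 3 highest folds of its subgroup. Genes, lists and rules were chosen with earlier results of these data known. Alternatives varied threshold, depth, width, assignment, class, contigs and merging. Python 3.11.15, numpy 2.4.6, pandas 2.3.3 and scipy 1.17.1 were used.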

Additional observations from a re-analysis of the deposited data

How the results depend on the processing

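Stricter peak sets moved the totals by construction. With peaks at a q of at most 0.05, and equally with a fold of at least 4, 1 member peak was left, its exon share was 100% and its fold 6.05. With at least 5 RIP fragments, 78 peaks were left, the exon share was 78.2% and the median fold 2.07. Of 86 alternatives, 77 stayed within 1.5 times the reported count or within the counting interval, among them all 48 for the highest folds. Those 48 are weak evidence of stability, because many settings left the same peak and the limits on q, fold and merging were not applied to them. By nearest start the highest fold was 2.86 for CRTC3 and 4.90 for ATF1. Both peaks lie in neighbouring genes and were counted as unchanged only because the intervals are wide. The count of members at a q of at most 0.05 was 1 under the nearest-start assignment too, but the gene was ATF1 in place of CRTC3. The pathway count was 11 as reported, 8 by nearest start and 10 by RefSeq span. The span assignment, and nearest start for the pathway genes, were chosen after the data were seen. No paired analysis was possible because each group has 1 library. Depth limits most values: 69 of the 169 peaks rest on 1 fragment, and no interval covers the spread between cultures.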

Other observations

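The upstream neighbour of ATF1, DIP2B, carried stronger peaks than ATF1. The nearest-start column gives 68 DIP2B exon or intron peaks to ATF1. The highest of them, in exon 31 of 38 of DIP2B (chromosome 12, 50731404 to 50731543), had 7 RIP fragments against an input level of 0.634 and a fold of 4.90 (2.33 to 9.44), and exon 26 had 4 fragments and a fold of 4.25 (1.78 to 9.55). The same column gives 20 IQGAP1 peaks to CRTC3, with folds of at most 2.79, and 2 KLHL26 peaks to CRTC1, with folds of at most 2.64. It also gives 88 of the 131 exon and intron peaks of the 8 genes to other genes, 36 of them from CREBBP, 20 from EP300 and 13 from CRTC3.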
